A study of Mus musculus with 3 samples.

Results

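Haemoglobin-rich cells were examined in 3 single-cell libraries of sorted mouse bone marrow. A cell was counted as haemoglobin-rich when transcripts of the 4 adult globin genes Hbb-bs, Hbb-bt, Hba-a1 and Hba-a2 made up at least 0.5% of its unique molecular identifiers (UMIs, the tags that mark single captured RNA molecules). The cells were thus selected on a measured value, their globin share, which is given as a description only. Of 29800 cells with at least 200 genes and at most 20% mitochondrial UMIs, 63 met this rule, or 0.211%. There were 50 such cells among 8353 in the young library, 9 among 10854 in the control library and 4 among 10593 in the old library. The label "erythroid-like" fitted these cells in part. Klf1, the erythroid transcription factor given as a marker beside Hbb-bs and Hba-a1, had a UMI in 31 of the 63 cells, so the name is kept below only for cells that held several erythroid genes, and the whole set is called haemoglobin-rich.

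The study profiled CD133+ bone marrow cells, called endothelial-like cells (ELCs) there, after fluorescence-activated sorting from mice labelled C57BL/6, given as C57BL/6N in the text of the study. The young library came from mice aged 3 months, the control library, labelled Ctrl with no further treatment given, also from mice aged 3 months, and the old library from mice aged 27 months by its label. The design text of the series and the text of the study instead give 18.5 months for the old mice, so the age of the old library is uncertain. The design text also names an intestinal source, whereas the labels and the study's text name bone marrow. Cells of 3 mice were combined for sequencing in the study. Each group is 1 library, so the spread between mice was not measured, no test between libraries is given, and the 95% intervals below cover counting error only.

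Red cells arise from progenitors in which the transcription factors GATA1 and KLF1 switch on the globin genes together with the enzymes of haem synthesis, iron uptake and the membrane skeleton. As erythroblasts mature they fill with globin mRNA, lose ribosomes and mitochondria and then expel the nucleus, and the reticulocyte that remains keeps globin mRNA for a while without making new transcripts. Haemoglobin mRNA is also a frequent constituent of free RNA in droplet libraries of blood-forming tissue, where it is captured with cells of other kinds.

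The sequences just upstream of the RefSeq starts of genes that define or mark these cells are printed because 2 adult beta globin genes and 2 adult alpha globin genes chose the cells and their proportions differed among them. The 250 bases before the RefSeq transcription start are given 5′ to 3′ on the coding strand of GRCm38.p6. Capitals mark exact matches on either strand to 5 motifs, a match on the other strand showing the reverse complement. AGATAA and the variant written TGATAA are cores of the kind bound by GATA factors. The motif CCACACCC is of the kind bound by KLF1, and CCAAT and the letters TATAA are common to many promoters, the latter usually close to the start.
Hbb-bs (chr7:103827929-103828178, minus strand): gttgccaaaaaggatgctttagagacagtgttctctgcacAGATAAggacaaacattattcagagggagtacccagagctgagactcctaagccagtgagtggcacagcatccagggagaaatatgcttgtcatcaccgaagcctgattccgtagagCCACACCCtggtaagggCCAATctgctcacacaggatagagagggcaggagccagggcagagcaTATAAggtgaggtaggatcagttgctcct
Hbb-bt (chr7:103813924-103814173, minus strand): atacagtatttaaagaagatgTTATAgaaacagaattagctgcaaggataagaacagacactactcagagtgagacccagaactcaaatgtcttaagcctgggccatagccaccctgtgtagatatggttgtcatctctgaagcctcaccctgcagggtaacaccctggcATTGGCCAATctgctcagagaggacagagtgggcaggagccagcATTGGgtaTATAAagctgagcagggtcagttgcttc
Hba-a1 (chr11:32283422-32283671, plus strand): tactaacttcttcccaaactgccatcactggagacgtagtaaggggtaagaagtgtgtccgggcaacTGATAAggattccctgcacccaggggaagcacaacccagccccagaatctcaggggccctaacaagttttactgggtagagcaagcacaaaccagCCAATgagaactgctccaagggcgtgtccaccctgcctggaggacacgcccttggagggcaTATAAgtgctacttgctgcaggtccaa
Klf1 (chr8:84901732-84901981, plus strand): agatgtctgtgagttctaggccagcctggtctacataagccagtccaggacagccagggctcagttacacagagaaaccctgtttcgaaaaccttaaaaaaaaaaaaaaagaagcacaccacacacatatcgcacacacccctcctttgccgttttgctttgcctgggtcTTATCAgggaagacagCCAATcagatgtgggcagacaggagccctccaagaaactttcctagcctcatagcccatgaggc
Alas2 (chrX:150547167-150547416, plus strand): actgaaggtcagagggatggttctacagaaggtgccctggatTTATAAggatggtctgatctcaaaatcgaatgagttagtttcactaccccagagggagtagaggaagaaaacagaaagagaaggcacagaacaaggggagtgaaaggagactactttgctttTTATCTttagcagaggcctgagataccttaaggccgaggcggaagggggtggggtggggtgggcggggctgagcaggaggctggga

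The Hbb-bs window held 1 match each to 4 of the 5 motifs and none to TGATAA, with the KLF1 motif lying 93 to 86 bases before the start. The Hbb-bt window held 3 matches to CCAAT and 2 matches to the letters TATAA, of which only the one at 28 to 24 bases lay close to the start, and none to either GATA motif or to the KLF1 motif, although 182 of 242 aligned bases (75.2%) were the same in the Hbb-bs and Hbb-bt windows. The Hba-a1 and Hba-a2 windows were the same in all 247 aligned bases, so only the first is printed. Among 32851 RefSeq windows of this length, AGATAA was found in 9.99% of them and the other GATA motif in 7.94%. The KLF1 motif was found in 3.20%, the CCAAT box in 33.8% and TATAA in 22.8%. A match describes letters in a window and not a bound site.

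In GENCODE M21 on GRCm38, Hbb-bs lies at chr7:103826534-103828096 and Hbb-bt at chr7:103812524-103813996, both on the minus strand, and Hba-a1 at chr11:32283511-32284465 and Hba-a2 at chr11:32296489-32297298, both on the plus strand. None of these overlaps another gene. GENCODE places some starts further upstream than RefSeq does, so of the 250 printed bases 168 in Hbb-bs, 73 in Hbb-bt, 161 in Hba-a1, 54 in Klf1 and 42 in Alas2 lie inside the GENCODE gene. Their transcripts are near copies: Hba-a1 and Hba-a2 differed at 1 of 538 aligned bases and Hbb-bs and Hbb-bt at 39 of 626. Of stretches of 100 bases in the Hba-a1 transcript, 56.5% occurred unchanged in Hba-a2, and 62.6% of those in Hbb-bs occurred in Hbb-bt. Among the 300 such stretches nearest the 3′ end, where these libraries are read, the shares were 66.7% and 47%, in the opposite order. Reads from such stretches cannot be assigned to 1 gene, so the split within each pair is uncertain. Whether such reads also changed the sum of a pair, and with it the globin share and the alpha share, was not tested. The regulators Klf1 (chr8:84901928-84905291, plus strand) and Gata1 (chrX:7959260-7978071, minus strand) and the carbonic anhydrase gene Car2 (chr3:14886273-14900770, plus strand) overlap no other annotated gene.

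The libraries held 81434722 UMIs (young), 108985799 (control) and 138030352 (old), with 8362, 10869 and 10597 barcodes. A median cell had 9719.5, 9560 and 13039 UMIs in the young, control and old library. The mitochondrial limit removed 9, 15 and 4 cells, none of them haemoglobin-rich, and no cell had under 200 genes. Between 120 and 161 cell barcodes were shared by each pair of libraries, and 1 haemoglobin-rich barcode of the young library also occurred in another library. A doublet caller marked 2 young, 2 control and 276 old cells and no haemoglobin-rich cell. Its marks in the young and control libraries were under 0.5% of cells, so it did not work there and no cell was removed as a doublet.

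The gene for the sorted antigen and endothelial genes were at low levels in haemoglobin-rich and in other cells. Prom1, the gene for CD133, had 8, 3 and 2 UMIs in the young, control and old haemoglobin-rich cells, or 11.6, 36.4 and 49.7 CPM (counts per 1000000 UMIs), against 43.2, 53.3 and 47.0 CPM in all other cells. The counting interval of the ratio lay below 0 on the log2 scale in the young library (−3.11 to −0.91) and spanned 0 in the control (−2.83 to 0.999) and old libraries (−2.97 to 1.93). The UMIs of the 4 globin genes are left out of this total throughout, and 1 UMI in the haemoglobin-rich cells equals 1.45 CPM in the young, 12.1 in the control and 24.9 in the old library. Of 5 endothelial markers (Cdh5, Pecam1, Kdr, Emcn and Tek) only Pecam1 had a UMI in these cells, with 2 UMIs in the young library and 0 in the control and old libraries. The 5 markers summed to 4.45, 1.82 and 3.22 CPM in the other cells of the 3 libraries.

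The share of haemoglobin-rich cells was 0.599% (95% Clopper-Pearson interval 0.445 to 0.788) in the young library, 0.0829% (0.0379 to 0.157) in the control library and 0.0378% (0.0103 to 0.0967) in the old library. The young interval lay above both others, and the control and old intervals overlapped. Young and control mice share the labelled age, and their libraries differed by more than counting error. These few cells carried most of the globin transcripts: 77420 of 87702 globin UMIs in the young library (88.3%), 21739 of 25320 in the control library (85.9%) and 4635 of 5604 in the old library (82.7%).

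The remaining globin UMIs were spread thinly over other cells. At least 1 globin UMI was found in 64.4% of other cells in the young library, 24.2% in the control library and 6.70% in the old library. In cells in which neutrophil markers made up at least 20% of UMIs and no erythroid panel gene was detected, which should lack globin, the shares were 64.0%, 23.4% and 6.58% at median depths of 9159.5, 8985 and 12468.5 UMIs. These cells numbered 5338 of 8303, 8713 of 10845 and 8870 of 10589 other cells, so their shares could not lie far from those of all other cells. A single globin UMI is therefore not read here as expression, and where it came from was not tested. The other cells held 128, 32.9 and 7.02 globin UMIs per 1000000 UMIs, in the order young, control, old, which is also the order of the numbers of haemoglobin-rich cells.

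Among the 50 young cells the globin share ran from 0.523% to 87.5%, with a median of 3.59%. The 9 control cells had shares of 1.02, 1.44, 2.76, 6.24, 45.4, 64.9, 82.5, 86.4 and 88.6%, and the 4 old cells 1.28, 2.11, 4.68 and 75.4%. Low and very high shares thus occurred in each library, with no control or old cell between 6.24% and 45.4%. The young cells just inside the limit had 0.523% and 0.536%, and those just outside had 0.454% and 0.447%. The 2 inside differed in kind: the first held 17 erythroid panel genes and 2.84% neutrophil marker UMIs, and the second held no panel gene and 35.0% neutrophil marker UMIs. The nearest control cells were at 1.02% inside and 0.361% outside, and the nearest old cells at 1.28% inside and 0.429% outside.

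Nuclear erythroid genes accompanied haemoglobin in part of the cells. Klf1 had a UMI in 52.0% of the young, 44.4% of the control and 25.0% of the old haemoglobin-rich cells, against 1.07, 0.304 and 0.198% of all other cells. Gata1, the GATA factor that acts with KLF1, had a UMI in 46.0, 33.3 and 25.0% of haemoglobin-rich cells, against 0.638, 0.129 and 0.189% of other cells. Car2, which encodes an abundant red cell carbonic anhydrase, had a UMI in 70.0, 55.6 and 75% of haemoglobin-rich cells, against 11, 4.44 and 3.12% of other cells.

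At least 1 of the 3 genes was detected in 35 of 50 young (70.0%, 55.4 to 82.1), 5 of 9 control and 3 of 4 old haemoglobin-rich cells, and in 12.0, 4.74 and 3.47% of other cells. All 3 genes were found together in 23 young, 3 control and 1 old haemoglobin-rich cells, against 16 of 8303, 5 of 10845 and 0 of 10589 other cells. Median depth was 12255 UMIs in haemoglobin-rich and 9715 in other young cells, 8690 and 9574 in the control library, and 12987.5 and 13039 in the old library. With each cell thinned to 2000 UMIs outside the globin genes, which left out 5, 3 and 1 shallower haemoglobin-rich cells, any of the 3 genes was found in 64.4% of young, 66.7% of control and 33.3% of old cells. At that depth Klf1 was found in 33.3% of young and 66.7% of control haemoglobin-rich cells and in none of the 3 old ones left.

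Summed over cells, Klf1 stood at 449, 473 and 74.6 CPM in the young, control and old haemoglobin-rich cells and at 2.74, 0.505 and 0.152 CPM in other cells. Gata1 stood at 150, 158 and 24.9 CPM against 1.08, 0.193 and 0.159. The old values rest on 3 Klf1 UMIs and 1 Gata1 UMI. Car2 was the most abundant of the 3, at 4322, 5363 and 2685 CPM against 30.2, 6.54 and 2.70 CPM, log2 ratios of 7.16 (7.08 to 7.24), 9.68 (9.50 to 9.85) and 9.96 (9.64 to 10.27). In the young library 20 of the 8303 other cells held 5 or more genes of the erythroid panel described below. These 20 cells gave 145 of the 221 Klf1, 48 of the 87 Gata1 and 1313 of the 2436 Car2 UMIs in other cells. The panel includes these 3 genes, so these shares are partly set by how the 20 cells were chosen. There were 6 such cells in the control library and 0 in the old library, so the levels in other cells rest partly on them. Sums over cells weigh those with many UMIs most, and levels of different genes are 3′ tag counts that do not grow with transcript length.

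The 3 nuclear genes were not spread evenly over these cells. An erythroid panel of 22 genes, of which 21 are in the tables, was used to separate them, and leaving Klf1, Gata1 and Car2 out of it leaves 18 genes. Counted over those 18 genes alone, the 63 cells fell apart with a gap: 34 cells had 6 to 17 of them and 29 cells had 0 to 3. Klf1 had a UMI in 31 of the 34 cells, Gata1 in 27 and Car2 in all 34. In the other 29 cells, Klf1 and Gata1 were each found in 0 of 29 cells and Car2 in 9. With a 0 bounded as 3 cells, and not by a Clopper-Pearson interval, a share of cells with a UMI of up to 10.3% is allowed. This does not bound the share that expresses Klf1 or Gata1. Of the 29 cells, 8 had a median of only 543 UMIs outside the globin genes. The limit of 5 panel genes used below for this division was chosen after the values were seen, and it divides the cells in the same way with all 21 genes (7 to 20 against 0 to 4).

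**Figure D1:**
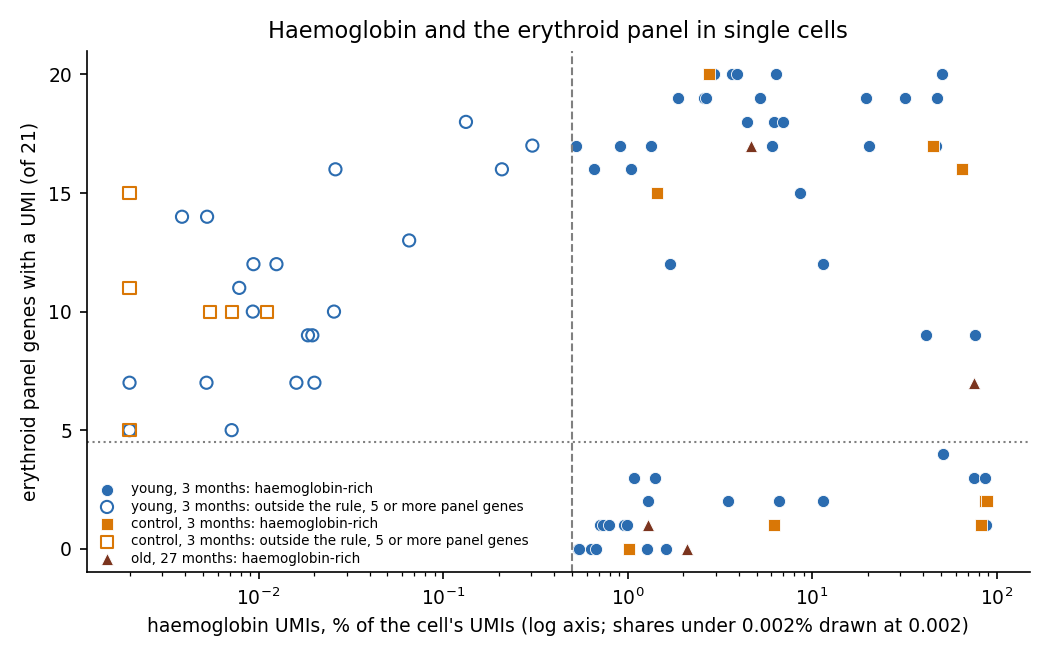
Each point is 1 cell, with its globin share of UMIs in percent on a logarithmic x axis and the number of the 21 erythroid panel genes with a UMI on the y axis, coloured by library. Filled points are the 63 haemoglobin-rich cells and open points the 26 cells below the 0.5% limit (dashed line) with 5 or more panel genes, and the dotted line between 4 and 5 genes separates the 34 panel-rich from the 29 panel-poor haemoglobin-rich cells.

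The panel-rich cells numbered 28 in the young, 4 in the control and 2 in the old library. The name erythroid-like is used for these alone, by their number of panel genes, which also depends on depth. It rests on fewer markers in 3 of them, 2 young and 1 old, which had no UMI of Klf1 or Gata1. They held 9, 9 and 7 panel genes and 40.2, 14.3 and 22.3% neutrophil markers, among 10665, 1933 and 1163 UMIs outside the globin genes. Panel-poor cells numbered 22, 5 and 2. Panel-rich cells were large libraries, with a median of 19893 UMIs and 3750 genes, and ribosomal protein transcripts made up a median of 29.0% of their UMIs outside the globin genes. The 29737 other cells had medians of 10832 UMIs, 2104 genes and 8.55% ribosomal protein transcripts. Panel-rich cells held 69.6% of the globin UMIs of all haemoglobin-rich cells.

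Panel-poor cells were of 2 sorts by their globin share. Those with under 20% globin, 21 cells (17 young, 2 control, 2 old), ran from 0.536% to 11.5% globin and together held 4.39% of the globin UMIs. Those with 20% or more, 8 cells (5 young, 3 control, 0 old), ran from 51.5% to 88.6% and held 26.0%. No panel-poor cell lay between 11.5% and 51.5%. Per cell the panel had a median of 148 CPM (0 to 1111) in those under 20% globin and 6122 CPM (2429 to 18939) in the 8 others. In panel-rich cells the median was 12859.5 CPM (2598 to 45246). The 8 cells had a median of 543 UMIs outside the globin genes, so their few panel genes do not mean a low panel level.

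Neutrophil transcripts set these kinds of cell apart. The measure is the summed share of 16 markers, among them the granule and calcium-binding protein genes Camp, Ngp, S100a8, S100a9, Elane and Mpo. It had a median of 3.12% (1.90 to 40.2) in the 34 panel-rich cells, of which 2 cells were at 20% or more. In the 21 panel-poor cells with under 20% globin the median was 39.5% (4.22 to 52.1) and 15 cells were at 20% or more, near the 40.2% median of all other cells, of which 25060 of 29737 were at 20% or more. Ribosomal protein transcripts stood at a median of 9.18% in the same 21 cells, close to the 8.55% of other cells. Most panel-poor cells of low globin share therefore had the marker level and ribosomal share of the neutrophil-rich cells that make up most of each library. How globin transcripts came to be in these barcodes was not tested.

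**Figure D2:**
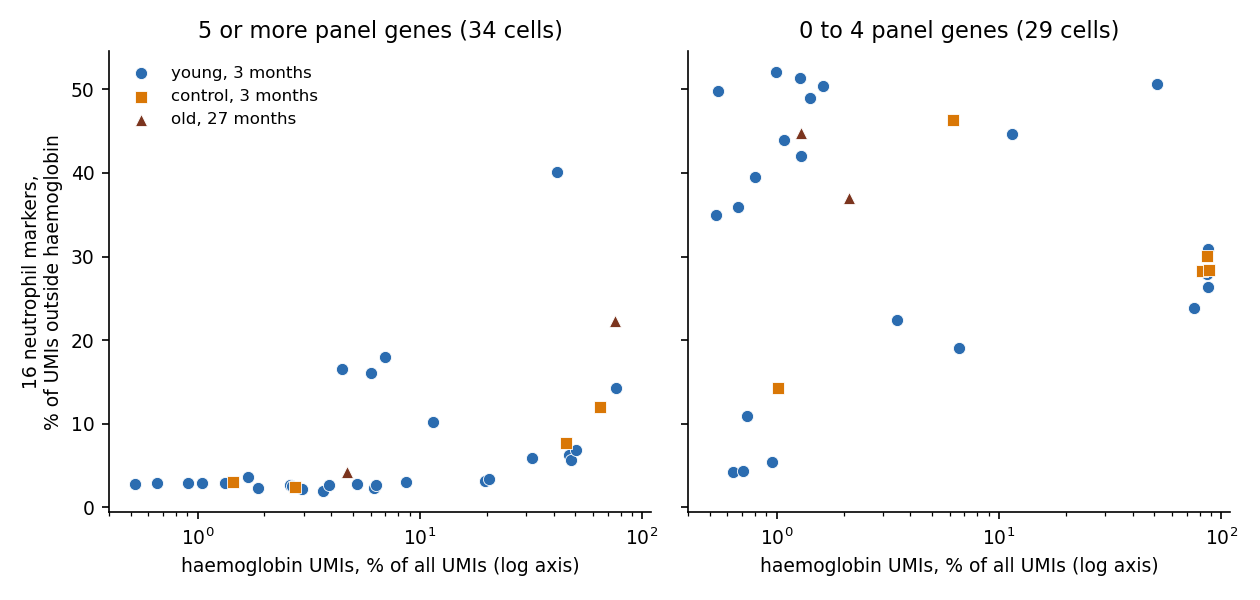
The y axis gives the share of 16 neutrophil markers in percent of UMIs outside the globin genes and the x axis the globin share of UMIs in percent, logarithmic, with each point 1 haemoglobin-rich cell coloured by library. The panel with 5 or more erythroid panel genes holds 34 cells with a median of 3.12%, and the panel with 0 to 4 such genes holds 29 cells with a median of 35.0%.

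The other 6 of the 21 cells had under 20% neutrophil markers, and 3 of these, all young, stood out by their markers of another cell type. One cell of 4417 UMIs held 53 UMIs of the 7 monocyte markers, from 4 genes and led by Ly6c2 with 33. It also held 28 UMIs of the dendritic cell list, all from Cd74. Another cell, of 3118 UMIs, held 46 UMIs of 4 dendritic cell markers and 56 of 4 markers of macrophages, the cells that nurse erythroblasts in marrow islands and engulf their nuclei. Mitochondrial transcripts made up 19.9% of its UMIs, just under the limit. The last of the 3, of 2727 UMIs, held 26 UMIs of 3 natural killer and T cell markers, 17 of them from Nkg7. In the other 3 cells the UMIs of that list came from Nkg7 alone, which also stood at 711 and 678 CPM in all other cells of the young and control libraries, so these UMIs do not show a further cell type.

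Genes were next compared between all haemoglobin-rich and all other cells within each library. Since globin content chose the cells, this comparison is a description. Genes with at least 10 CPM in either set of cells and outside the 4 globin genes were taken, and a ratio past 2-fold was counted. In the young library 2124 of 7034 genes were higher (30.2%) and 841 lower (12%) in the haemoglobin-rich cells. In the control library 3281 of 7477 were higher (43.9%) and 1176 lower (15.7%), and in the old library 1847 of 6099 were higher (30.3%) and 1669 lower (27.4%). Of 5494 genes taken in every library, 559 were higher (10.2%) and 188 lower (3.42%) in all 3. This balance turned with a limit of 5% globin, which left 1 old cell, to 101 higher and 510 lower. By the mean over cells 345 were higher and 182 lower, and with UMI trimming 244 and 137. The counting interval itself lay past 2-fold for 1013 higher (14.4%) and 192 lower genes (2.73%) in the young library, 763 higher (10.2%) and 79 lower (1.06%) in the control library, and 180 higher (2.95%) and 7 lower (0.115%) in the old library. It did so in all 3 for 117 higher genes (2.13%) and 1 lower gene (0.0182%).

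The median log2 ratio over all genes taken was 0.52 in the young, 0.79 in the control and 0.22 in the old library. With genes at 0 UMIs set to the bound that 3 UMIs would give, these medians were 0.52, 0.97 and 1.03, since 10, 663 and 1416 genes had 0 UMIs in the haemoglobin-rich cells. Most erythroid genes are scarce in other cells and reached 10 CPM only through the haemoglobin-rich cells. They thus had to come out higher once taken. A single UMI, at 12.1 and 24.9 CPM, was enough to reach that level in the control and old libraries. Of 68 erythroid genes at 10 CPM in some set of cells, 42 in the young, 52 in the control and 40 in the old library reached it only through the haemoglobin-rich cells. Counts are therefore given below for the genes that reached 10 CPM in the other cells, and for all genes of a list by the counting interval. Of all genes that reached 10 CPM in the other cells, 1108 of 5661 were higher (19.6%) and 841 lower (14.9%) in the young library, 1486 of 5312 higher (28%) and 1176 lower (22.1%) in the control library, and 845 of 5097 higher (16.6%) and 1669 lower (32.7%) in the old library. In the young library 26 erythroid genes reached this level, of which 21 were higher and 1 lower. In the control library 13 of 16 were higher and 1 lower, and in the old library 10 of 15 were higher and 1 lower. By the interval 60, 59 and 42 of the 68 genes were higher in the young, control and old libraries.

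Transcriptional regulators of the erythroid programme had a counting interval above 2-fold for 10, 9 and 4 of 12 genes in the young, control and old library, and 6 of the 12 rested on 1 UMI in the old cells. Of those that reached 10 CPM in other cells, 2 of 3, 2 of 3 and 1 of 2 were higher. The summed level of the list was 1431, 1517 and 472 CPM in haemoglobin-rich cells and 174, 131 and 135 CPM in other cells. Sox6, a partner in silencing of embryonic globin genes, stood at 77.0, 121 and 24.9 CPM against 0.149, 0.0276 and 0.0145. Tal1, the helix-loop-helix partner of GATA1, stood at 78.5, 97.1 and 24.9 CPM against 1.53, 1.49 and 0.964. Nfe2, a globin enhancer factor that megakaryocytes also use, did not pass 2-fold, at 69.7, 72.8 and 74.6 CPM against 67.2, 53.4 and 66.7. Zfpm1, Ldb1 and Epor had 0 UMIs in the 4 old cells.

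Haem synthesis genes had a counting interval above 2-fold for 8, 8 and 7 of 9 genes. Of those that reached 10 CPM in other cells, 5 of 6 were higher in the young, 3 of 4 in the control and 4 of 5 in the old library. The gene among these that was not higher in any library was Alas1, the ubiquitous form of the first enzyme, at 77.0, 48.5 and 273 CPM against 216, 253 and 277, log2 ratios of −1.49 (−1.91 to −1.10) in the young, −2.38 (−4.26 to −1.03) in the control and −0.02 (−1.02 to 0.82) in the old library. Alas2, the erythroid form of the same enzyme, stood at 257, 449 and 224 CPM against 0.273 and 0.0735 CPM in the young and control libraries and 0 UMIs in the other old cells. The later enzymes followed Alas2 in direction. Cpox stood at 484, 874 and 273 against 6.75, 6.62 and 4.38, and Fech, which inserts the iron, at 247, 595 and 124 against 10.6, 8.35 and 11.2. Alas2 overlaps the antisense genes Apex2 and Mir3620 at chrX:150547375-150570638.

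Genes of iron uptake and haem transport had a counting interval above 2-fold for 7, 7 and 3 of 9 genes, and of those at 10 CPM in other cells 4 of 6, 4 of 5 and 1 of 3 were higher. Tfrc, the transferrin receptor, stood at 192, 243 and 99.4 CPM against 16.5, 28.2 and 7.57 in other cells. Slc25a37 (mitoferrin), which carries iron into mitochondria, stood at 173 and 303 CPM in the young and control cells against 10.2 and 8.93, and had 0 UMIs in the 4 old cells. Ferritin chains differed: the heavy chain Fth1 stood at 4800, 5618 and 2983 CPM against 621, 478 and 678, and the light chain Ftl1 at 3680, 3955 and 2933 CPM against 2304, 2212 and 2665, log2 ratios of 0.68, 0.84 and 0.14 that did not pass 2-fold. Both ferritin genes have near copies elsewhere in the genome, which makes their counts less certain. The gene counted as lower in the old library was Slc48a1, a haem transporter, with 1 UMI.

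Membrane and skeleton genes were nearly absent from other cells. Of 18 genes, 1 in the young library and 0 in the control and old libraries reached 10 CPM there, so the number past 2-fold is set by the filter. The counting interval lay above 2-fold for 18, 18 and 13 of the 18 genes, 4 having 0 UMIs in the old cells, and their summed levels were 3522, 4659 and 1790 CPM against 26.8, 16.9 and 12.6. Slc4a1, the band 3 anion exchanger, stood at 232, 194 and 249 CPM against 0.298 and 0.0184 CPM, with 0 UMIs in the other old cells. Rhd of the Rh complex stood at 485, 667 and 249 CPM against 1.54 and 0.138 CPM, and at 0 UMIs in the other old cells.

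Red cell enzymes and late erythroid genes had a counting interval above 2-fold for 17, 17 and 15 of 20 genes. Of those that reached 10 CPM in other cells, 9 of 10 were higher in the young, 4 of 4 in the control and 4 of 5 in the old library. Car1, a second carbonic anhydrase, stood at 870, 1250 and 447 CPM against 16, 2.86 and 0.0507. In the young library 1054 of the 1290 Car1 UMIs in other cells came from 20 cells with 5 or more panel genes. The remaining other young cells lay far lower, but Car1 is itself in the panel that chose the 20 cells, which partly sets this difference. The control library held 6 such cells below the globin limit and the old library 0. Prdx2, the main red cell peroxiredoxin, stood at 1871, 2245 and 870 CPM against 72.9, 54.0 and 61.5. Blvrb, a flavin and biliverdin reductase, stood at 1411, 1577 and 597 CPM against 21.9, 9.18 and 12.6. Bnip3l, which serves in clearing mitochondria, passed 2-fold in the control library alone, with log2 ratios of 0.64 (0.42 to 0.85), 1.31 (0.68 to 1.87) and 0.01 (−1.44 to 1.13). The whole panel, which draws on these lists and of which 2, 0 and 0 genes reached 10 CPM in other cells, summed to 9665, 12630 and 5270 CPM against 62.9, 13.6 and 4.75.

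**Figure D3:**
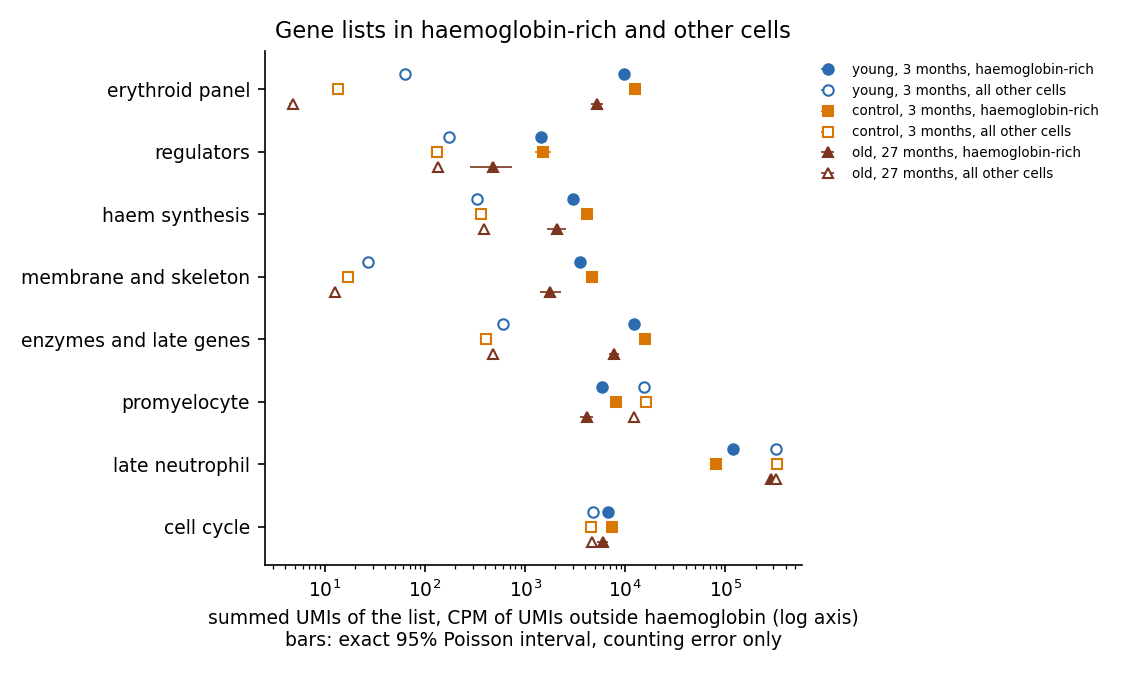
Summed CPM of 8 gene lists on a logarithmic axis in haemoglobin-rich cells and in all other cells of each library, with bars for the 95% Poisson interval of the UMI count. The membrane list stood at 3522, 4659 and 1790 CPM in haemoglobin-rich cells of the young, control and old libraries and at 26.8, 16.9 and 12.6 CPM in other cells, while the late neutrophil list was lower in the haemoglobin-rich cells, at 119791, 80138 and 283701 CPM against 319913, 330948 and 322807.

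The 1905 genes with at least 10 CPM in the haemoglobin-rich cells and a ratio above 1 in every library were ranked by the ratio nearest to 0 on the log2 scale. The 15 highest included Ypel4, Apol11b, Adam33, Trim10, Alas2, Slc4a1, Sec14l2, Gm867, Epb42, Fn3k, Sox6, Slc6a9, Pdia2 and Tac2, and 6 of the 15 stood in the erythroid lists, as did 53 of the 1905 (2.78%), a set that erythroid genes enter through the cells in which they are high. Ypel4 led with 12, 1 and 2 UMIs in the young, control and old haemoglobin-rich cells and 0 in every other cell. Slc6a9 encodes the glycine transporter GlyT1, and glycine is a substrate of the first step of haem synthesis; it had 7, 1 and 2 UMIs against 2, 0 and 1. Fn3k encodes a kinase that removes sugar adducts from proteins and had 23, 2 and 1 UMIs against 5, 0 and 0. Several of these places rest on a single UMI in the control or old library.

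The 10 lowest by the same ranking were Ube2d1, Ano6, Gys1, Sptlc1, Slc35d2, Gm9733, Ubtd1, Crispld2, Impdh1 and Tapbpl. They had 0 to 3 UMIs in the 50 young cells, 0 in the control and old cells, and 10.2 to 26.8 CPM in the other cells. In the young library Gys1, which encodes the muscle-type glycogen synthase, stood at 2.91 CPM against 26.8 (log2 ratio −3.20, −6.25 to −1.35). The control and old libraries did not reach the depth to show a difference for these 10 genes, since 3 UMIs would equal 36.4 and 74.6 CPM there.

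The panel-rich cells varied among themselves with globin content. This is described in the young library, which held 20 panel-rich cells below the 0.5% limit, 13 at 0.5 to 5%, 8 at 5 to 20% and 7 at 20% or more. Across these 4 steps Alas2 stood at 0, 44.1, 302 and 2003 CPM, and Slc4a1 at 0, 112, 423 and 1224 CPM. Both were higher at every step, with counting intervals that did not overlap between neighbouring steps. Hemgn, a haematopoietic nuclear protein gene, stood at 88.8, 376, 617 and 1625 CPM, and Fech at 93.3, 197, 309 and 1046 CPM. Alas2, Slc4a1 and Hemgn, and Klf1, Gata1, Car1 and Car2 below, are in the panel that chose the cells of every step. Their levels are thus partly set by that choice.

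The nuclear regulators changed far less over the same steps. Klf1 stood at 330 (279 to 388), 550 (474 to 635), 631 (510 to 772) and 623 (414 to 901) CPM, and only the first step lay apart from its neighbour. Gata1 stood at 109 (80.6 to 145), 176 (135 to 227), 168 (109 to 248) and 401 (237 to 633) CPM, with overlapping neighbours. Car1 ran the other way from Car2. Car1 stood at 2400, 1144, 1147 and 846 CPM and Car2 at 2989, 5396, 4930 and 8790.5 CPM. Bpgm, which makes the 2,3-bisphosphoglycerate that lowers oxygen affinity, stayed at 20.5, 23.5 and 60.4 CPM over the first 3 steps and stood at 645 (432 to 927) CPM in the last, where 3 of 7 cells held a UMI. Of its 29 UMIs there, 15 were in the cell with 41.6% globin and 13 in the cell with 76.3%, and the level was 409 CPM without the first and 372 CPM without the second, so the Bpgm value rests on these cells.

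Cell cycle genes were present throughout. The list of 10, which includes Mki67, Top2a and Pcna, summed to 3816, 6552, 8734 and 11305 CPM across the 4 steps, and Mki67 had a UMI in 6 of the 7 cells with 20% or more globin. Haem synthesis genes summed to 1031, 3017, 3736 and 8768 CPM and membrane genes to 1227, 3599, 4494 and 11439 CPM. The 16 neutrophil markers moved with these steps too, at 36668, 38300, 83863 and 140158 CPM, but these levels rest on few cells. One of the 7 cells of the last step, with 41.6% globin and 40.2% neutrophil markers, held 4282 of its 6298 neutrophil marker UMIs, and the other 6 cells stood at 58827 CPM. At 5 to 20% globin 3 of the 8 cells held 10216 of 12502 such UMIs, and the other 5 stood at 27794 CPM. The first step also had a cell with 4320 of its 16106 such UMIs, and the second a cell with 4810 of 13024. Those steps are given with all cells, so the levels without cells are not set against them. The part of these markers in the step values was not tested. Over panel-rich haemoglobin-rich cells of all libraries the median UMI count was 26775.5, 18661.5 and 9654.5 at 0.5 to 5%, 5 to 20% and 20% or more globin, the median number of genes 4415.5, 3669.5 and 1757, the ribosomal protein share 31.6, 28.4 and 11.7%, and the mitochondrial share 2.48, 2.25 and 1.30%, both of UMIs outside the globin genes. Cells richer in globin thus had lower medians of all these measures.

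**Figure D4:**
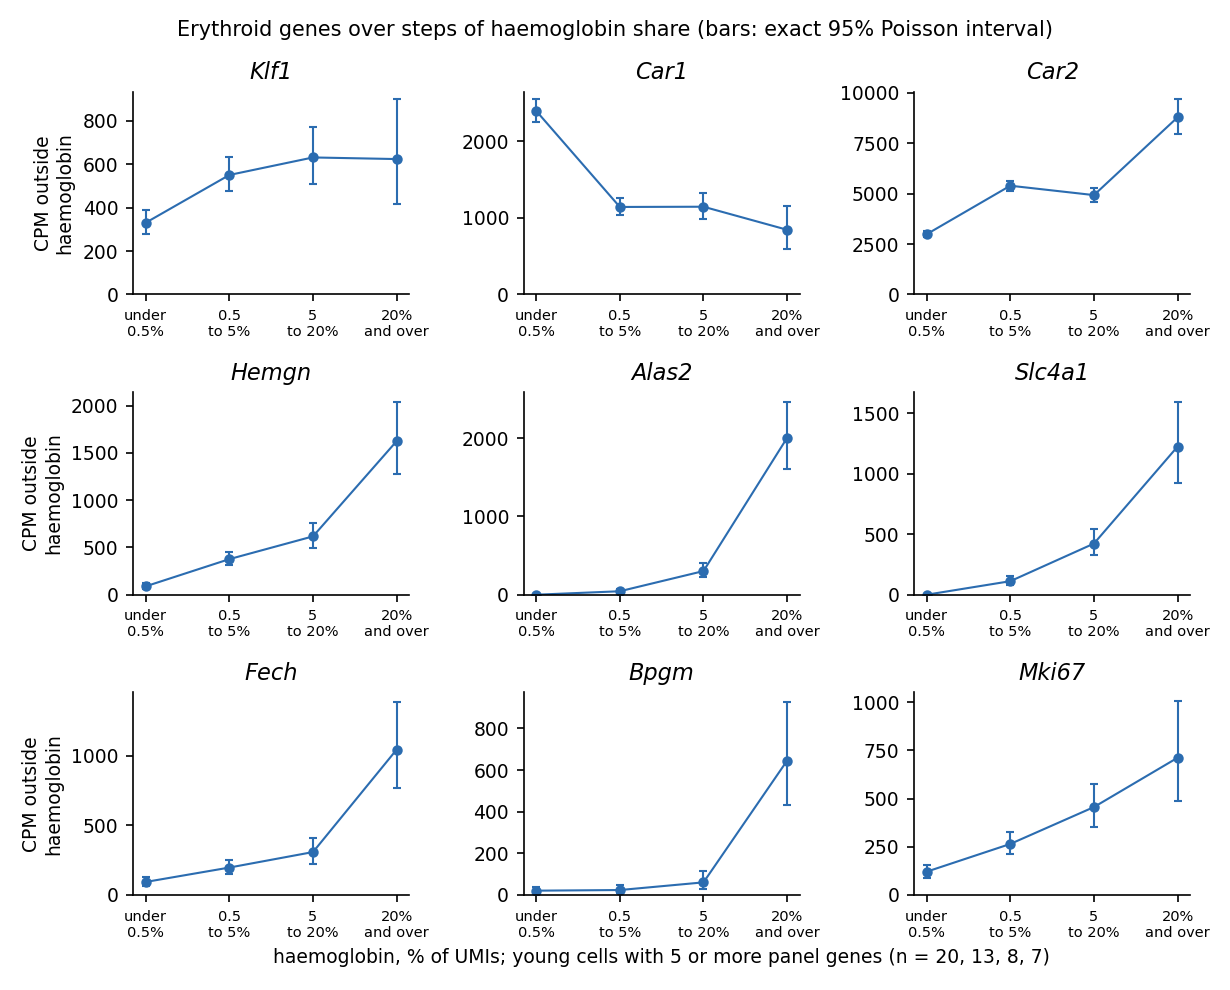
Level in CPM, on linear axes from 0, of Klf1, Car1, Car2, Hemgn, Alas2, Slc4a1, Fech, Bpgm and Mki67 in panel-rich cells of the young library at 4 steps of globin share (20, 13, 8 and 7 cells), with 95% Poisson bars. Alas2, Slc4a1 and Hemgn are higher at every step, Klf1 stays between 330 and 631 CPM, and Car1 has its own highest level, 2400 CPM, below the 0.5% limit.

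The 26 panel-rich cells below the globin limit (20 young, 6 control, 0 old) were not haemoglobin-rich by the rule. They had 5 to 18 panel genes, a median globin share of 0.00935% and a maximum of 0.305%, a median of 20300.5 UMIs, 31.2% ribosomal protein transcripts and 3.04% neutrophil markers. Klf1 had a UMI in 24 of the 26 cells and Gata1 in 22, whereas Alas2 and Slc4a1 had none. These genes belong to the panel that chose the 26 cells, so the Klf1 and Gata1 counts are partly set by that choice. Kit, the stem cell factor receptor of early progenitors, had a UMI in 16 of these cells and in 3 of the 34 panel-rich haemoglobin-rich cells. Gata2, which precedes Gata1, had a UMI in 12 of the 26 cells and in 0 of the 34. One of the young cells stood apart, with 683 UMIs of the 8 megakaryocyte and platelet markers, such as Pf4, where no other of the 26 held more than 2. It had 5 panel genes with 14 UMIs and none of Klf1, and without it Klf1 stood at 353 CPM and Car1 at 2563 CPM in the other 19 young cells below the limit. The 26 cells had a median of 10 panel genes, against 17 in the 34 panel-rich haemoglobin-rich cells. The globin rule therefore leaves out cells with several panel genes and little globin.

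At the other end were 9 cells with 75% or more globin (5 young, 3 control, 1 old). They had a median of 4070 UMIs, 332 genes and between 1 and 9 panel genes, and mitochondrial transcripts made up a median of 0.850% (0.568 to 2.42) of their UMIs outside the globin genes. Klf1, Gata1, Hemgn and Rhag had 0 UMIs in all 9 cells, which together held few UMIs outside the globin genes (a median of 558 per cell). Alas2 had a UMI in 7 of the 9 cells, Bpgm in 8 and Mkrn1, which encodes a ubiquitin ligase, in 8. Their levels there were 5321, 5173 and 6060 CPM, against 309, 93.1 and 374 CPM in the 34 panel-rich cells, which include 2 of the 9. Neutrophil markers made up a median of 28.0% (14.3 to 30.9) of the UMIs outside the globin genes in these cells. In the 5 young cells of this sort S100a8 had 313 UMIs, S100a9 205, Camp 133 and Ngp 124, more than the 24 of Mkrn1, the 23 of Bpgm and the 21 of Alas2. Whether these UMIs came from the same cell or from RNA outside it was not tested.

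The proportions of the globin genes differed among these kinds of cell, which the rule, using only their sum, did not fix. Over all haemoglobin-rich cells Hbb-bt made up 26.4, 21.9 and 26.1% of beta globin UMIs in the young, control and old libraries, and in other cells 25.7, 21 and 24.1%. In panel-rich cells with under 20% globin it made up 36.5% (35.6 to 37.4) in the young, 65.7% in the control and 73.7% in the old library. In panel-rich cells with 20% or more globin it was 26.9, 24.5 and 20.9%, and in panel-poor cells 16.6, 15.9 and 20.9%. Within each library the panel-rich cells of low globin share thus had the highest Hbb-bt share. The control and old values of that kind come from 2 cells and 1 cell.

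Per cell, among those with at least 100 globin UMIs, the Hbb-bt share had a median of 42.7% (16.7 to 75, 24 cells) in panel-rich cells under 20% globin, 25.3% (20.9 to 33.6, 10 cells) in panel-rich cells at 20% or more, and 17.8% (8.06 to 26.8, 18 cells) in panel-poor cells. The ranges overlap. Hba-a2 ran in the opposite direction, with medians of 16.5% (2.97 to 40.8), 28.8% (19.7 to 42.7) and 42.7% (26.5 to 45.9) of alpha globin UMIs in the same 3 kinds of cell. Alpha chains made up 49.3, 50.7 and 47.2% of globin UMIs in the haemoglobin-rich cells of the young, control and old libraries. In panel-rich cells under 20% globin they made up 53.3, 63.8 and 61.7%, with single cells of at least 100 globin UMIs between 42.5% and 89.4%. The lowest single cell of any kind, at 36.0%, was panel-poor. The embryonic beta-type genes Hbb-y, Hbb-bh1 and Hbb-bh2 had 0 UMIs in every cell, and the embryonic alpha-type gene Hba-x had 1 UMI in the young haemoglobin-rich cells.

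**Figure D5:**
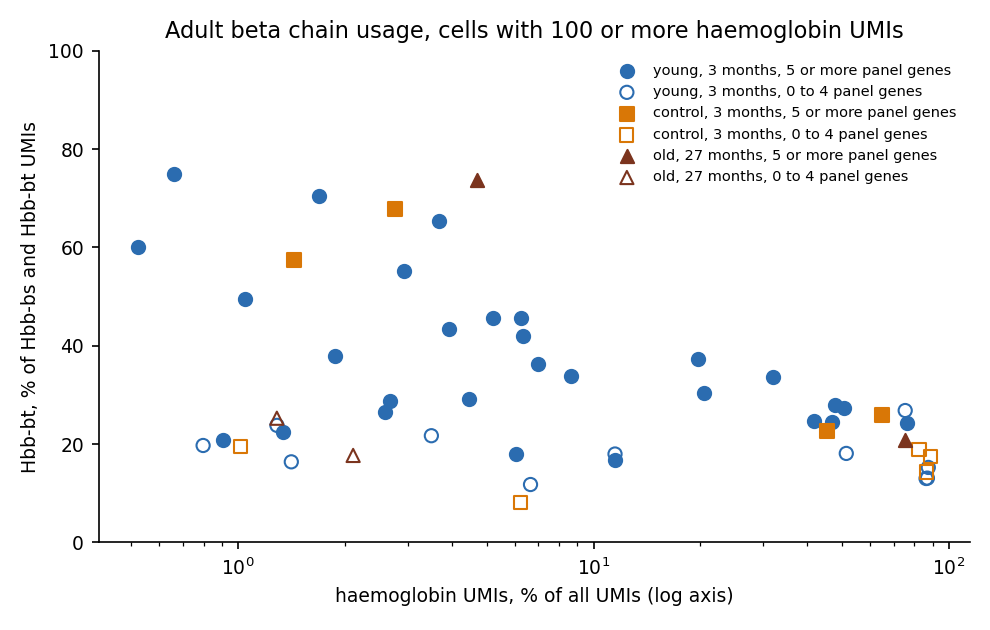
Share of Hbb-bt in percent of beta globin UMIs (y axis) against the globin share of UMIs in percent (logarithmic x axis) for haemoglobin-rich cells with at least 100 globin UMIs, each point 1 cell. Panel-rich cells with under 20% globin reach 75% with a median of 42.7%, and panel-poor cells lie between 8.06% and 26.8%.

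The libraries were set side by side within the haemoglobin-rich cells. The erythroid panel summed to 9665 CPM in 50 young, 12630 CPM in 9 control and 5270 CPM in 4 old cells, log2 ratios of −0.87 (−1.08 to −0.68) for old over young, 0.39 (0.29 to 0.48) for control over young and −1.26 (−1.48 to −1.05) for old over control. Neutrophil markers were at 287802 CPM in the old and 125644 CPM in the young cells. In panel-rich cells alone (28 young, 4 control, 2 old) the panel stood at 12345, 16130 and 14933 CPM, and old over young was 0.27 (0.07 to 0.47). The lower panel level of the old haemoglobin-rich cells was thus not found in the 2 old panel-rich cells, of which 1 had no Klf1 or Gata1 UMI and the other stood at 13101 CPM, and with 2 cells in 1 library no difference with age can be told apart from the makeup of these few cells.

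The summed levels of late neutrophil, promyelocyte, monocyte and natural killer and T cell markers lay below those of other cells in every library, though by little for late neutrophil markers in the old library. The 10 late neutrophil markers summed to 119791, 80138 and 283701 CPM in the young, control and old haemoglobin-rich cells against 319913, 330948 and 322807 CPM in other cells, with S100a8 the most abundant at 50515, 33693 and 115837 CPM. Of these genes 10, 9 and 4 were lower past 2-fold. Over all genes taken, 12, 15.7 and 27.4% were lower in the young, control and old libraries. Among genes at 10 CPM in other cells the shares were 14.9, 22.1 and 32.7%. The old count is therefore not read as a result about this list. In the old library the sum had a log2 ratio of −0.19 (−0.21 to −0.16) and Ngp stood slightly higher, at 54339 against 51729 CPM. The 6 promyelocyte markers summed to 5854, 8081 and 4102 CPM against 15228, 16072 and 12257, and 6, 3 and 5 of them were lower past 2-fold. The 7 monocyte markers stood at 911, 473 and 795 CPM against 2675, 1541 and 1493, led by Ly6c2, the only one of them with a UMI in the control and old cells. Of those at 10 CPM in either set of cells, 5 of 6, 1 of 1 and 1 of 2 were lower. The control and old libraries had too few such genes to set against the shares of all genes. The macrophage list stood at 205, 48.5 and 74.6 CPM against 145, 105 and 104, with a log2 ratio of 0.49 (0.24 to 0.73) in the young library. That direction rests on 1 cell, the one with 19.9% mitochondrial UMIs, which held 56 of the 141 macrophage marker UMIs. The other 49 young cells stood at 124 CPM on 85 UMIs. No interval was computed for that level, so no direction is read from it. Natural killer and T cell markers had 215, 22 and 0 UMIs, or 312, 267 and 0 CPM against 738, 679 and 462, of which Nkg7 gave 203 and all 22. Dendritic cell markers had 99, 1 and 0 UMIs, basophil and mast cell markers 41, 2 and 0, and B cell progenitor markers 15, 1 and 0. Stem and progenitor markers had 9, 1 and 0 UMIs and megakaryocyte and platelet markers 21, 2 and 0. The last list stood at 30.5 and 24.3 CPM in the young and control cells against 31.8 and 4.52 in other cells. Its member Gp9 was higher there, at 17.4 and 24.3 CPM against 3.50 and 1.28, on 12 and 2 UMIs. Pf4 ran the other way in the young library, at 8.72 against 19.2 CPM.

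The study's own filter also trimmed cells on both tails of UMI count, 5% at each end. Applied here within each library, the upper limit lay at 17466.8 UMIs in the young and 18084.6 in the control library. It would remove 19 of the 50 young and 2 of the 9 control haemoglobin-rich cells, all 21 of them panel-rich, and the lower limit would remove 4 young, 1 control and 1 old cell. Trimming on UMI count thus takes out panel-rich cells in particular, of which 28 were found in the young library without it.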

How the data were processed

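Bone marrow CD133+ cells of 1 young, 1 control and 1 old library were sequenced with the 10x Genomics 3′ chemistry, and per the labels and the study's methods the authors aligned reads to mm10 with STAR and counted them with Cell Ranger 2.1.0. The deposited values are raw UMI counts per gene (27998 genes) and barcode in filtered matrices, with no cell annotation. Here cells with at least 200 genes and at most 20% mitochondrial UMIs were kept, with no UMI trimming, and cells with at least 0.5% globin UMIs were taken. The members and gene lists were chosen with earlier results of these data known. UMIs were summed over cells per library and divided by the UMIs outside the 4 globin genes (CPM). Ratios have exact conditional binomial 95% intervals, levels exact Poisson and shares Clopper-Pearson intervals, which cover counting error only. A ratio was called past 2-fold where the gene reached 10 CPM in haemoglobin-rich or other cells. A zero was bounded with 3 UMIs over the cells compared, and the share of 0 of 29 cells with 3 cells. No test was made because each group is 1 library, and cells are not replicates. Named genes were those of the gene lists, the 15 highest and the 10 lowest by the ratio nearest to 0 of the 3 libraries, among genes with at least 10 CPM in the haemoglobin-rich cells of every library (for the lowest, in the other cells of every library). Single cells, classes of cells and genes described after their values were seen were added to these. Ahsp and Trbc2 were not found in the tables. Doublets were called with Scrublet in Scanpy 1.11.5 and not removed. Alternatives were other globin, fold, CPM and gene limits, trimming, thinning and a mean over cells. Scripts ran in Python 3.11.15 (pandas 2.3.3, SciPy 1.17.1, NumPy 2.4.6, Matplotlib 3.10.9) and were tested on simulated data. Upstream sequences are from RefSeq on GRCm38.p6. Some genes of the lists are counted in them but not reported here by name.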

Additional observations from a re-analysis of the deposited data

How the results depend on the processing

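Each group is 1 library, so error between mice is unknown, and the control and old values rest on 9 and 4 cells. No paired analysis was possible because each group holds 1 library and its number is only a name. With a limit of 5% globin the haemoglobin-rich cells numbered 22 in the young and 1 in the old library, genes higher in all 3 libraries 101 and lower 510, and the panel log2 ratios were 1.43 for old over young and 0.92 for old over control, both reversed with 1 old cell left, and 0.52 for control over young. With 0.2% the control library had 15 such cells. UMI trimming left 27 young cells and 244 higher genes. Genes higher and lower in all 3 libraries numbered 190 and 66 at 50 CPM, 982 and 393 past 1.5-fold, 209 and 21 past 4-fold, and 117 and 1 by the interval. With at least 1 UMI in both sets of cells in place of the CPM minimum, which leaves out genes at 0 UMIs, 50 genes were lower. By the mean over cells 345 were higher. By that mean the panel ratio was 0.33 for old over young, reversed, and −0.12 for old over control. In panel-rich cells it was 0.27 for old over young, reversed, and −0.11 for old over control. The cause of the last 2 reversals was not tested. After thinning, 1 old cell had at least 2 panel genes. The interval and the limit of 5 panel genes were chosen after seeing the data. With all UMIs in the denominator 391 genes were higher and 274 lower. The other 40 values, these among them, stayed within 1.5 times the count given or, for ratios, within the counting interval.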
